A study of Mus musculus with 6 samples.

Results

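The genes described here are 10 markers of endothelial cells, the cells that line blood vessels: Pecam1, Cdh5, Esam, Cldn5, Kdr, Flt1, Tek, Tie1, Emcn and Egfl7. All probes that the platform annotation gives to one of these genes were taken, which found 13 of the 25697 probes on the array for 9 genes, and Cldn5 is not analysed here. The 13 probes were read on each of 6 bead arrays from cells sorted for a green fluorescent reporter of osteocalcin, a gene of mineral-forming cells, so that their signal could be set array by array beside the osteoblast genes for which the cells were sorted. Cementoblasts, which lay down the mineral layer of the tooth root, came from the periodontium of extracted molars, and osteoblasts came from calvaria, the flat bones of the skull. Every sample was OC-GFP on the C57Bl6/J strain, of mixed sex and untreated. Cementoblast replicates 1, 2 and 3 pooled 7, 10 and 6 mice, aged 6 to 7, 5 to 6 and 6 to 7 weeks. Osteoblast replicates 1, 2 and 3 pooled 6 mice each, aged 6, 5 to 6 and 6 to 7 weeks. Both tissues were digested with trypsin and collagenase, but only for calvaria was a first fraction discarded, so this step cannot be told apart from the tissue. GFP is the sort criterion that the labels name, and they leave unsaid if one set of mice gave both tissues, so p-values measure the spread between these pools.

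Endothelial cells hold the vessel wall together through junctional adhesion molecules, among them VE-cadherin (Cdh5), PECAM-1 (Pecam1), ESAM (Esam) and claudin-5 (Cldn5). They respond to vascular endothelial growth factor through the receptors Kdr and Flt1, and to angiopoietins through the receptor Tek, with Tie1 as its partner. Emcn is a sialomucin of the vessel surface that is abundant in venous and capillary endothelium, including that of bone, and Egfl7 is a protein that endothelial cells secrete into their matrix. Bone marrow and the periodontal ligament are both rich in vessels. Several of these genes are also used by blood cells: platelets carry Pecam1 and Esam, leukocytes carry Pecam1, and monocytes carry Flt1.

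Promoters of 7 of the 10 genes were found in the RefSeq table (GRCm38.p6). The 200 bases before the start were searched on both strands for AGGAAG and its reverse complement CTTCCT, a form of the sequence bound by ETS transcription factors, a family that is active in endothelium. It was present before 4 of the 9 starts of these genes (3 of 7 genes), beside 24.7% of 32851 promoters of the same length. Flt1, Emcn and Egfl7 are shown because, of the genes with a promoter in the table and a probe kept for testing, their signal had the largest SD over the cementoblast arrays, and Tie1 because its SD was the smallest; capitals mark the motif. Flt1 (chr5:147726012-147726211, minus strand) had 2 matches, Emcn (chr3:137340878-137341077, plus strand) had 2, the second of 3 Egfl7 starts (chr2:26583665-26583864, plus strand) had 1, and Tie1 (chr4:118489850-118490049, minus strand) had 0.
Flt1: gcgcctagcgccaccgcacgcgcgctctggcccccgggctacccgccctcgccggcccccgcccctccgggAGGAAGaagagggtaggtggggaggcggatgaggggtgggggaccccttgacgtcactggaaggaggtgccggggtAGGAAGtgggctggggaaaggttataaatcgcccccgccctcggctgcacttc
Emcn: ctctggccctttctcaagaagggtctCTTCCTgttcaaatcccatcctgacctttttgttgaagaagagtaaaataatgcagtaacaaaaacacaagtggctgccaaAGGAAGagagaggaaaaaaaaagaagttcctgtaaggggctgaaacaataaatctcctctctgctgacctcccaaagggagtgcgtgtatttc
Egfl7: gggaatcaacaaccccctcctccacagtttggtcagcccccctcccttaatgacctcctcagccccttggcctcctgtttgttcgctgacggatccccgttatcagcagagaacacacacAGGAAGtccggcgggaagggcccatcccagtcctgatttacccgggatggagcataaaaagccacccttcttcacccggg
Tie1: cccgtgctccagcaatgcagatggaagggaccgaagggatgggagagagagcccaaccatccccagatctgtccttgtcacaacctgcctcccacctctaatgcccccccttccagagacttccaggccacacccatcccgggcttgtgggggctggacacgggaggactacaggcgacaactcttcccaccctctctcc
A match is a description of the letters only. The first Egfl7 start had 2 matches and the third 0, and Cldn5, Kdr and Tek had 0 each.

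The 6 arrays differed in brightness and in how many probes were detected, that is, had a detection p-value under 0.05 against the negative control beads. Cementoblast replicates 1, 2 and 3 had 9791, 10059 and 10040 of all 25697 probes detected, against 8480, 13347 and 12922 for osteoblast replicates 1, 2 and 3. The median signal was 78.5 to 82.7 on the cementoblast arrays and 81.2, 95.6 and 111.1 on osteoblast replicates 1, 2 and 3, so raw signals of one probe are only roughly comparable between arrays, and levels of different probes are not compared. Normalized values below are on the log2 scale after background correction and quantile normalization, where the lowest detected probe had 4.80, 4.75 and 4.75 on cementoblast replicates 1, 2 and 3 and 5.11, 4.37 and 4.40 on osteoblast replicates 1, 2 and 3. As a check of the labelled cell type, cementoblast replicates 1, 2 and 3 detected 13, 12 and 15 of 15 probes for osteoblast genes, and osteoblast replicates 1, 2 and 3 detected 15, 15 and 14. Col1a1, the main collagen of bone and cementum, was detected on all 6 arrays, at log2 signals between 13.87 and 14.07; quantile normalization gave 3 of them the same value, so this gene does not rank the arrays.

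Endothelial markers were detected on both cementoblast replicates 1 and 2, on osteoblast replicates 2 and 3, and hardly at all on cementoblast replicate 3 and osteoblast replicate 1. Cementoblast replicates 1, 2 and 3 had 10, 10 and 1 of the 13 probes above background, and osteoblast replicates 1, 2 and 3 had 2, 8 and 11. No probe was detected on all 6 arrays, and those of Kdr and the second of Flt1 were detected on none. Detection therefore differed between arrays within each tissue, but its reach differed between arrays too. Of all probes, 33% were detected on osteoblast replicate 1, against 51.9% and 50.3% on osteoblast replicates 2 and 3. The lowest detected normalized signal was 5.11 on osteoblast replicate 1 and 4.37 on osteoblast replicate 2. Emcn, for one, was detected on osteoblast replicate 2 at 5.00. The counts of osteoblast replicates 1 and 2 are therefore not directly comparable. In these bulk samples, fewer endothelial cells and less RNA per endothelial cell cannot be told apart.

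**Figure D1:**
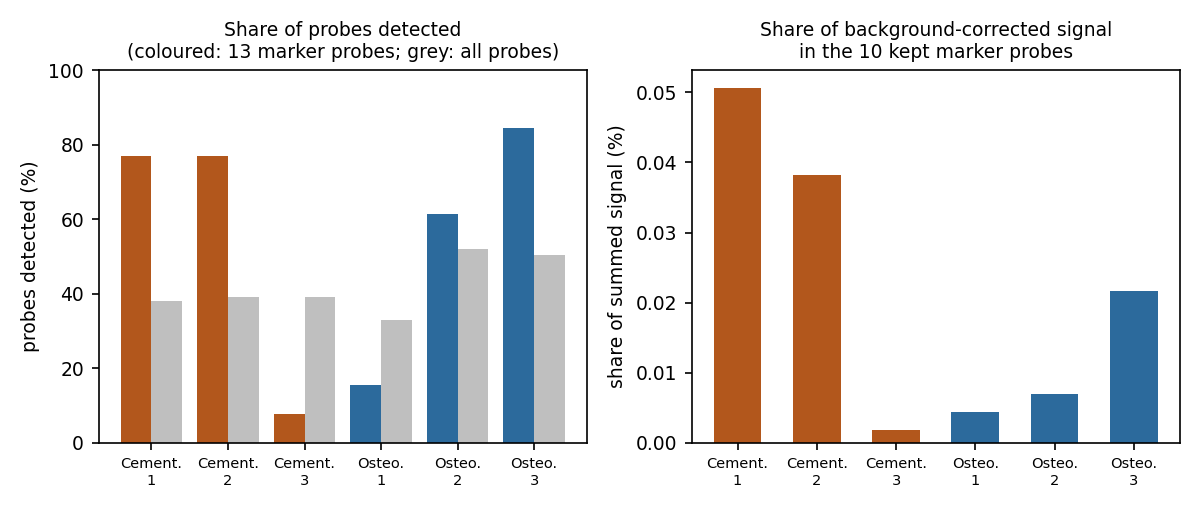
Left, the share of the 13 endothelial marker probes (coloured) and of all 25697 probes (grey) with a detection p-value under 0.05, in percent, on each array, cementoblasts (brown) left of osteoblasts (blue). Right, the share of the summed background-corrected signal of all 11198 kept probes that the 10 kept marker probes held, in percent, highest on cementoblast replicate 1 (0.0506%) and lowest on cementoblast replicate 3 (0.00186%).

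Pecam1, an adhesion molecule of endothelial junctions, was measured by 2 probes. The first (ILMN_2700982) had raw signals of 112.8, 96.3 and 80.8 on cementoblast replicates 1, 2 and 3, and 86.1, 101.9 and 156.5 on osteoblast replicates 1, 2 and 3. The second (ILMN_3147074) had 93.4, 85.5 and 81.0 on the cementoblast arrays and 78.4, 96.3 and 156.9 on the osteoblast arrays, again highest on osteoblast replicate 3. Neither was detected on cementoblast replicate 3, and on osteoblast replicate 1 only the first was, with a detection p of 0.0050. After normalization the first probe had log2 signals of 7.18, 6.58 and 4.31 on the cementoblast arrays and 5.65, 4.62 and 5.11 on the osteoblast arrays, so the osteoblast arrays lay between the cementoblast arrays and the groups overlapped.

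Cdh5, the cadherin that defines endothelial junctions, was detected on 3 of the 6 arrays. It had raw signals of 89.9, 84.7 and 76.4 on cementoblast replicates 1, 2 and 3, and 80.7, 90.6 and 113.7 on osteoblast replicates 1, 2 and 3. Those 3 were cementoblast replicates 1 and 2 and osteoblast replicate 3. Its normalized signals were 5.64, 5.57 and 4.16 in cementoblasts and 4.34, 4.24 and 4.45 in osteoblasts: the 3 osteoblast arrays stood close together, below 2 cementoblast arrays and above the third.

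Esam, an immunoglobulin-family adhesion molecule of endothelium and platelets, spread more widely. Its raw signals were 124.1, 116.3 and 78.6 on cementoblast replicates 1, 2 and 3, and 79.8, 128.8 and 319.7 on osteoblast replicates 1, 2 and 3. Normalized, these became 7.56, 7.45 and 4.21 in cementoblasts and 4.27, 5.30 and 6.43 in osteoblasts. Cementoblast replicate 3 and osteoblast replicate 1 were both undetected and stood within 0.1 of each other, while the other 4 arrays were all detected.

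The receptors for vascular endothelial growth factor gave an uneven picture. Kdr, the main signalling receptor, had raw signals of 83.3, 75.9 and 80.6 on cementoblast replicates 1, 2 and 3, and 82.5, 89.4 and 101.3 on osteoblast replicates 1, 2 and 3. Its single probe was not above background on any array, its lowest detection p being 0.104 on cementoblast replicate 1, so no difference can be given for it at this signal. Flt1, which binds the same ligand, was measured by 2 probes, of which only the first was detected on any array. The first (ILMN_1227926) had raw signals of 127.2, 105.8 and 75.8 on the cementoblast arrays and 78.8, 120.7 and 310.7 on the osteoblast arrays. The second was within 76.1 to 83.4 on the cementoblast arrays and 78.2 to 94.0 on the osteoblast arrays, and was detected on none. By the first probe Flt1 followed Esam over the arrays, with normalized signals of 7.65, 7.09 and 4.14 in cementoblasts and 4.22, 5.13 and 6.37 in osteoblasts.

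Tek, the angiopoietin receptor, and its partner Tie1 shared their highest arrays. Tek had raw signals of 103.2, 93.3 and 78.3 on cementoblast replicates 1, 2 and 3, and 79.5, 112.1 and 166.0 on osteoblast replicates 1, 2 and 3. Its normalized signals were 6.72, 6.38 and 4.20 in cementoblasts and 4.25, 4.91 and 5.22 in osteoblasts. Tie1 stayed near background throughout, with raw signals of 86.0, 81.0 and 81.9 on the cementoblast arrays and 80.7, 93.6 and 114.4 on the osteoblast arrays. It was detected on cementoblast replicates 1 and 2 and osteoblast replicate 3, and its normalized signals were 5.03, 4.95 and 4.42 in cementoblasts and 4.34, 4.33 and 4.46 in osteoblasts.

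Emcn, the endothelial sialomucin, was one of 2 genes, with Pecam1, that were detected on osteoblast replicate 1. It had raw signals of 129.0, 121.3 and 81.2 on cementoblast replicates 1, 2 and 3, and 86.5, 115.9 and 268.5 on osteoblast replicates 1, 2 and 3, with a detection p of 0.0025 on osteoblast replicate 1 and 0.243 on cementoblast replicate 3. Its normalized signals were 7.70, 7.60 and 4.34 in cementoblasts and 5.70, 5.00 and 6.11 in osteoblasts. All 3 osteoblast arrays thus lay between cementoblast replicates 1 and 2 above and cementoblast replicate 3 below.

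Egfl7, the secreted endothelial protein, was measured by 3 probes annotated to different transcripts. The first (ILMN_3163288) had raw signals of 154.8, 136.5 and 77.3 on cementoblast replicates 1, 2 and 3, and 80.5, 165.0 and 412.1 on osteoblast replicates 1, 2 and 3. The second (ILMN_1215919) had 94.4, 84.0 and 76.8 on the cementoblast arrays and 79.9, 106.4 and 171.6 on the osteoblast arrays. These 2 probes put the arrays in the same order. The third differed: it was at 81.0, 74.7 and 84.0 on the cementoblast arrays and 76.8, 93.0 and 111.8 on the osteoblast arrays, and its 2 detections, on cementoblast replicate 3 (0.0489) and osteoblast replicate 3 (0.0388), had detection values just under the threshold of 0.05. It was the only marker probe detected on cementoblast replicate 3. Normalized, the first probe had 8.28, 7.95 and 4.17 in cementoblasts and 4.32, 5.92 and 6.86 in osteoblasts, the widest spread of any marker.

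**Figure D2:**
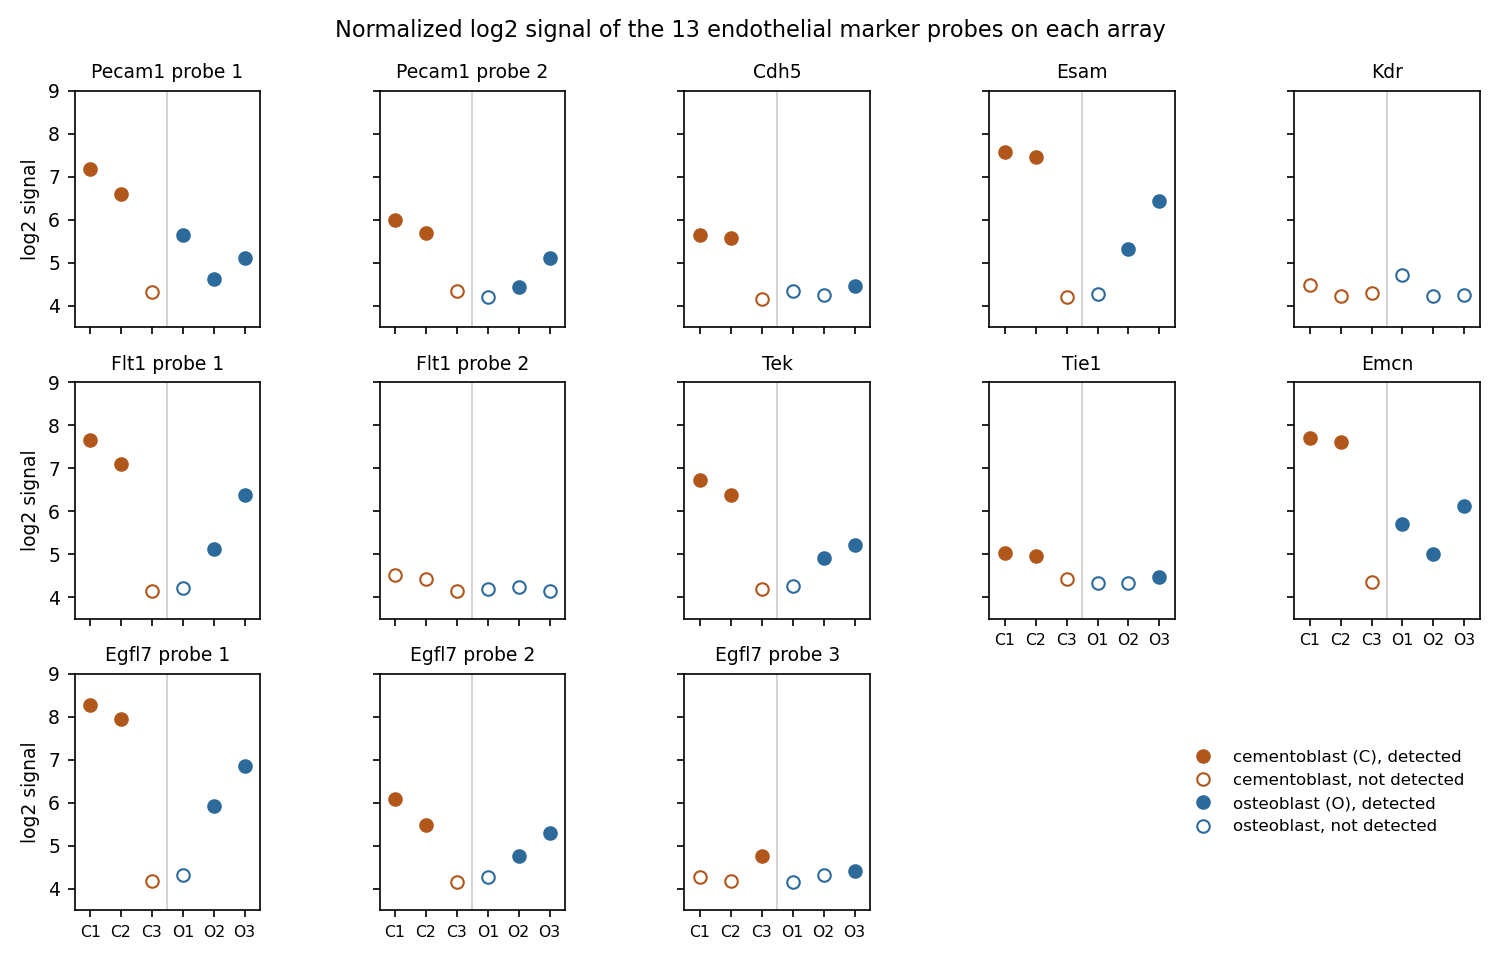
Normalized log2 signal (vertical axes) of each of the 13 endothelial marker probes on cementoblast arrays C1 to C3 (brown) and osteoblast arrays O1 to O3 (blue); open circles were not detected. For the 10 kept probes the 2 highest values are on C1 and C2, and for 6 of them the 2 lowest are on C3 and O1, as for Flt1 probe 1 with 7.65, 7.09 and 4.14 in cementoblasts and 4.22, 5.13 and 6.37 in osteoblasts.

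The markers shared their highest arrays, and less often their lowest. The tests use the 10 probes of 8 genes that were detected on at least 3 of the 6 arrays; Kdr, the second Flt1 probe and the third Egfl7 probe did not meet that filter. Cementoblast replicates 1 and 2 held the 2 highest normalized signals for 10 of the 10 probes, beside 10.5% of all 11198 kept probes, and replicate 1 was above replicate 2 each time. Cementoblast replicate 3 was lowest for 8 of 10, beside 16.6% of all kept probes. Osteoblast replicate 1 was lowest for the second Pecam1 probe and osteoblast replicate 2 for Tie1. Of the kept marker probes, 0 were detected on cementoblast replicate 3 and 2 on osteoblast replicate 1. Which of the low arrays was lowest is therefore mostly an order among undetected values. Both cementoblast replicate 3 and osteoblast replicate 1 were the lowest pair for 6 of 10, with the first Pecam1 probe and Emcn among the exceptions, since both were higher on osteoblast replicate 1 than on replicate 2. Osteoblast replicate 3 was the highest osteoblast array for 9 of 10. Averaged over the 10 probes, the log2 signal was 6.79, 6.47 and 4.24 on cementoblast replicates 1, 2 and 3 and 4.56, 4.86 and 5.54 on osteoblast replicates 1, 2 and 3.

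Which array was highest depended on the scale. Raw signal, and signal after background correction alone, were highest on osteoblast replicate 3, the brightest array, for 10 of 10 probes, and lowest on cementoblast replicate 3 for 8 of 10 and on osteoblast replicate 1 for 2 after background correction. The background-corrected signals of the 10 probes summed to 313.9, 243.1 and 21.2 on cementoblast replicates 1, 2 and 3 and to 32.1, 244.0 and 1187.6 on osteoblast replicates 1, 2 and 3. As a share of the summed signal of all kept probes these were 0.0506%, 0.0382% and 0.00186% in cementoblasts and 0.00444%, 0.00690% and 0.0216% in osteoblasts. In the submitters' own normalized values cementoblast replicate 1 was highest for 10 of 10 probes and cementoblast replicate 3 lowest for 8. For Emcn those values were 357.4, 329.5 and 93.7 in cementoblasts and 165.8, 115.9 and 179.4 in osteoblasts. By the mean log2 signal, the summed background-corrected signal and its share of the whole, cementoblast replicate 3 and osteoblast replicate 1 were the 2 lowest arrays, whereas the rank of osteoblast replicate 3 against cementoblast replicates 1 and 2 turned on the normalization.

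Between the tissues, no endothelial marker differed beyond the spread between pools. By limma over all 11198 kept probes with Benjamini-Hochberg adjustment at 0.05, 0 of the 10 probes were called, and 0 had an unadjusted p under 0.05, beside 0.295% of all kept probes called (33, of which 13 were higher and 20 lower in cementoblasts; 732 had an unadjusted p under 0.05). All 10 fitted differences, cementoblast minus osteoblast, lay above 0, with a median of 0.92 on the log2 scale, where the median of all kept probes was -0.02 and 46.8% lay above 0. The groups overlapped for each of the 10, but how often they overlapped among all kept probes was not counted, so this does not set the markers apart. The smallest adjusted p was that of Cdh5 (limma, adjusted p = 0.875), with means of 5.12 ± 0.84 over the cementoblast arrays and 4.35 ± 0.10 over the osteoblast arrays (SD, n = 3 each) and a difference of 0.78 ± 0.41 (SE) with a 95% interval of -0.17 to 1.72. The largest difference was that of the first Egfl7 probe, 6.80 ± 2.28 over the cementoblast arrays and 5.70 ± 1.28 over the osteoblast arrays (SD, n = 3 each), or 1.10 ± 1.09 (SE; limma, adjusted p = 0.982). For Emcn the interval of the difference ran from -0.99 to 2.87, and for the first Pecam1 probe from -0.68 to 2.48. Esam, the first Flt1 probe and Tek differed by 1.07, 1.05 and 0.97 with SEs of 0.92, 0.91 and 0.63, and Tie1 by 0.42 with an SE of 0.26. Intervals of this width do not show that the tissues had equal amounts of endothelial RNA.

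The width came mostly from the cementoblast arrays. The SD over the 3 cementoblast arrays was larger than that over the 3 osteoblast arrays for 10 of 10 marker probes, beside 65.3% of all kept probes. It ran from 0.33 for Tie1 to 2.28 for the first Egfl7 probe, with a median of 1.44 where the median over all kept probes was 0.40. Over the osteoblast arrays the median SD was 0.51 for the markers and 0.30 for all kept probes.

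Calls among the markers appeared, of the single arrays left out, only without cementoblast replicate 3. Without it, limma on the remaining 5 arrays called 2 of the 10 probes higher in cementoblasts, beside 1.73% of all kept probes called: Emcn differed by 2.07 ± 0.37 (SE; adjusted p = 0.0442) and Cdh5 by 1.35 ± 0.25 (SE; adjusted p = 0.0499). Both lay just under the threshold, and all 10 probes then had an unadjusted p under 0.05, with a median difference of 1.81. Tek differed by 1.82 (adjusted p = 0.0620) and the first Pecam1 probe by 1.80 (adjusted p = 0.0730). Without both cementoblast replicate 3 and osteoblast replicate 1, an alternative chosen after seeing the data, 2 probes were called, beside 2.38% of all kept probes: the first Pecam1 probe at 2.19 ± 0.34 (SE; adjusted p = 0.0420) and Cdh5 at 1.50 ± 0.25 (SE; adjusted p = 0.0471), with Emcn at 2.18 (adjusted p = 0.0654). These fits leave 2 or 3 arrays a group. With each of the other arrays left out no marker was called, but few probes of any kind were. Of all 11198 kept probes, 8 were called without cementoblast replicate 1 and 0 without cementoblast replicate 2. Without osteoblast replicates 1, 2 and 3 in turn, 16, 12 and 4 were called. These fits thus say little about the markers. The median marker difference was 0.36 without cementoblast replicate 1 and 0.58 without cementoblast replicate 2. It was 0.57 without osteoblast replicate 1, 0.66 without osteoblast replicate 2 and 0.85 without osteoblast replicate 3.

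**Figure D3:**
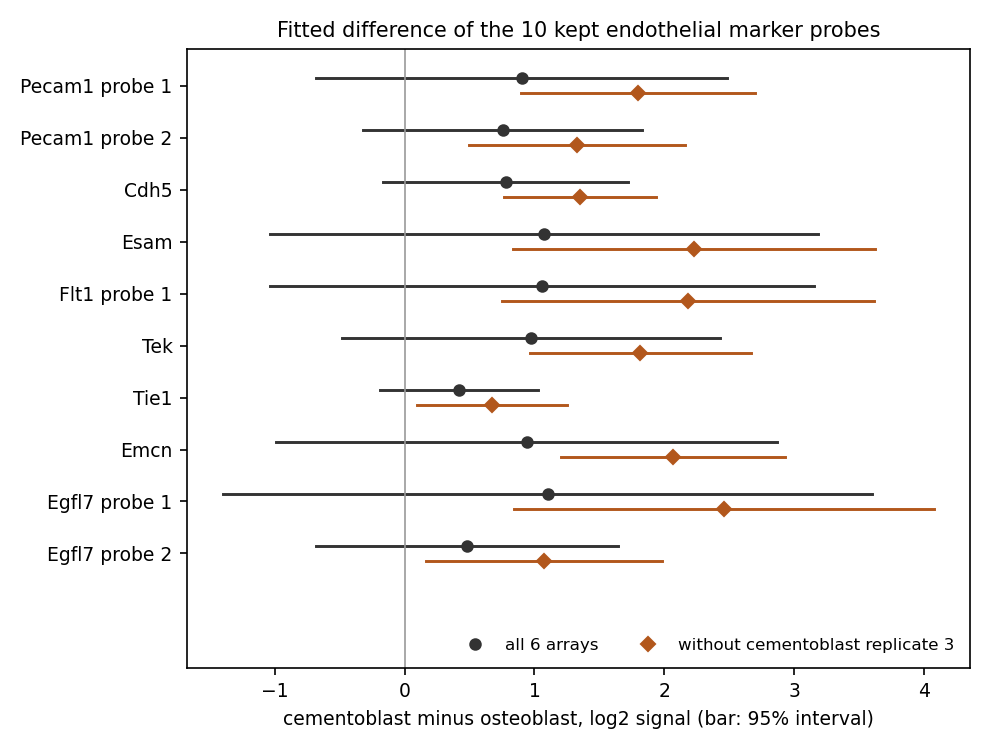
Fitted difference in log2 signal, cementoblast minus osteoblast (horizontal axis), of the 10 kept marker probes with its 95% interval, over all 6 arrays (black circles) and without cementoblast replicate 3 (brown diamonds). All intervals cross 0 over all 6 arrays; without that array the differences run higher, as for Emcn with 0.94 and 2.07.

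Other endothelial genes followed the markers over the arrays in part. Of a further 33 endothelial genes, 30 had a probe on the array, and of their 38 probes cementoblast replicates 1, 2 and 3 detected 18, 19 and 4, and osteoblast replicates 1, 2 and 3 detected 6, 20 and 23. Of all probes, the cementoblast arrays detected 38.1%, 39.1% and 39.1% and the osteoblast arrays 33%, 51.9% and 50.3%. The 20 of 38 on osteoblast replicate 2 were thus close to the share of all probes there. Of the 20 kept probes, 11 had their 2 highest normalized signals on cementoblast replicates 1 and 2, beside 10.5% of all kept probes. The 20 averaged 6.19, 5.92 and 4.51 on the cementoblast arrays and 4.80, 5.31 and 5.62 on the osteoblast arrays. Of these 20, 17 lay above 0 with a median of 0.45, and limma called 0, beside 0.295% of all kept probes. Vwf, the clotting factor that endothelial cells and platelets store, had 7.36, 6.82 and 4.44 in cementoblasts and 4.19, 4.73 and 5.30 in osteoblasts. Sox7, an endothelial transcription factor, had 6.53, 6.80 and 4.33 in cementoblasts and 4.50, 4.67 and 4.63 in osteoblasts (difference 1.29 ± 0.60, SE; limma, adjusted p = 0.786). Without cementoblast replicate 3, Vwf, Mmrn2 and Sox7 were called higher in cementoblasts, at 2.42, 2.05 and 2.14 (limma, adjusted p = 0.0325, 0.0440 and 0.0132). That fit called 1.73% of all kept probes. Without osteoblast replicate 1 as well, Vwf, Rasip1 and Sox7 were called higher, and Esm1 lower, beside 2.38% of all kept probes called.

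Several genes of that list had another order of arrays. Among them, Podxl, chosen after its values were seen, was highest on cementoblast replicate 3, with 4.51, 4.87 and 4.90 in cementoblasts and 4.15, 4.62 and 4.86 in osteoblasts, and the probes below 0 were those of Esm1, Thbd and Adgrl4 (-0.07). Eng, a co-receptor for TGF-beta that mesenchymal cells also use, was detected on all 6 arrays, with 6.86, 7.25 and 6.81 in cementoblasts and 6.73, 6.89 and 6.90 in osteoblasts, so the arrays that lacked the markers did not lack Eng. Esm1, a proteoglycan of endothelial tip cells, was not detected on any cementoblast array and had 5.82, 7.63 and 8.40 on osteoblast replicates 1, 2 and 3. Its osteoblast mean of 7.28 was 5.71-fold above the mean of the lowest detected signals of the cementoblast arrays. That bound on the means leaves out the spread between the osteoblast arrays, and the difference was not called (limma, adjusted p = 0.116). Thbd, the thrombin receptor thrombomodulin, had 6.50, 6.19 and 4.27 in cementoblasts and 7.10, 8.19 and 6.72 in osteoblasts (difference -1.68 ± 0.62, SE; limma, adjusted p = 0.632).

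Genes of vessel subtypes were thinly represented, and none was called, beside 0.295% of all kept probes, so the lack of calls says little. Of the arterial genes, Gja4, a gap junction protein, was detected on 3 arrays, and Hey1, a Notch target also used outside vessels, had 7.99, 8.61 and 6.14 in cementoblasts and 6.85, 6.57 and 7.07 in osteoblasts. Among venous genes, Ackr1, a chemokine-binding receptor of venules, was not low on cementoblast replicate 3: it had 6.24, 6.55 and 6.17 in cementoblasts and 4.38, 5.02 and 4.90 in osteoblasts (difference 1.56 ± 0.28, SE; limma, adjusted p = 0.0897). Selp, the adhesion molecule P-selectin of endothelium and platelets, had 7.80, 7.87 and 4.58 in cementoblasts and 5.25, 5.12 and 4.83 in osteoblasts. Ephb4, which marks veins, was detected on 3 arrays, cementoblast replicate 3 among them. Prox1, the transcription factor that defines lymphatic endothelium, was detected on 1 cementoblast array by each of its 2 probes and on no osteoblast array, and neither probe was kept. Ccl21a, a lymphatic chemokine with near-identical copies that a probe may not separate, had 8.31, 8.56 and 4.29 in cementoblasts and 4.19, 4.58 and 4.63 in osteoblasts (difference 2.59 ± 1.00, SE; limma, adjusted p = 0.671). Of sinusoidal genes, Stab2 was detected on 2 osteoblast arrays and no cementoblast array, and Stab1, which macrophages also carry, had 6.42, 6.02 and 4.28 in cementoblasts and 4.89, 6.84 and 5.51 in osteoblasts.

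Of 7 kept probes for ligands of these receptors, 6 lay above 0, with a median of 0.36. Angpt2, the angiopoietin that binds Tek and modulates its signalling, was the only ligand called by limma, with 6.52, 5.71 and 6.55 in cementoblasts and 9.51, 9.01 and 9.27 in osteoblasts, a difference of -3.00 ± 0.31 (SE; adjusted p = 0.0152), and no cementoblast array reached the lowest osteoblast array. That call was made under 12 of 18 alternatives and was lost with the replicate block (adjusted p = 0.0657), with no detection filter (0.0916), and without cementoblast replicate 1 (0.0667), cementoblast replicate 2 (0.0896), osteoblast replicate 1 (0.0664) or osteoblast replicate 3 (0.0515). Vegfa, the ligand of Kdr and Flt1, was detected on all 6 arrays by 2 of its 3 probes, the brighter with 7.10, 7.89 and 6.77 in cementoblasts and 6.80, 7.33 and 6.54 in osteoblasts (difference 0.36 ± 0.36, SE; limma, adjusted p = 0.982). The co-receptor Nrp1, also expressed by mesenchymal cells, had 8.64, 8.14 and 6.10 in cementoblasts and at least 8.39 on each osteoblast array by the probe with the smallest p (limma, adjusted p = 0.875), and 0 of the 3 kept co-receptor probes lay above 0. Genes shared by endothelium and blood precursors (5 kept probes) averaged 5.97, 5.89 and 4.59 in cementoblasts and 4.89, 5.63 and 5.29 in osteoblasts. Of these 5 probes 0 were called, beside 0.295% of all kept probes.

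Markers of other cell types were read beside the endothelial genes, and no leukocyte, macrophage, neutrophil, mural, platelet, erythroid, B lineage, Schwann or epithelial probe was called. With 0.295% of all kept probes called, 0 calls in lists this short says little about them. Mural cells, which wrap the vessels, gave a mean over 14 kept probes of 6.62, 6.59 and 5.08 in cementoblasts and 6.29, 6.63 and 6.79 in osteoblasts, so osteoblast replicate 1 was not low; 8 of the 14 lay above 0, with a median of 0.08. Rgs5, a pericyte marker, had 6.00, 5.39 and 4.11 in cementoblasts and 4.17, 4.76 and 6.21 in osteoblasts. Other mural genes had another order. Tagln, Acta2 and Des, those with the smallest p, had differences of -0.75, -2.19 and -0.49 (limma, adjusted p = 0.644, 0.822 and 0.925). On osteoblast replicate 1 these were detected, at 5.20, 11.41 and 5.32. General leukocyte genes (11 kept probes) averaged 8.88, 7.34 and 5.37 in cementoblasts and 4.63, 7.87 and 6.88 in osteoblasts, with 11, 11 and 8 of 13 probes detected on the cementoblast arrays and 2, 12 and 11 on the osteoblast arrays. Their lowest arrays, cementoblast replicate 3 and osteoblast replicate 1, were those lowest for the endothelial markers, with the order between them turned round, and all 11 probes lay above 0 with a median of 0.71. Ptprc, the first gene of the leukocyte list, was detected on 1 osteoblast array by 1 probe and on no array by the other, and neither probe was kept. Macrophage genes (7 kept probes) averaged 8.30, 7.17 and 4.37 in cementoblasts and 4.81, 8.94 and 7.13 in osteoblasts, and neutrophil genes (14 kept probes) 10.66, 9.07 and 7.17 in cementoblasts and 6.12, 9.05 and 8.56 in osteoblasts. Of the macrophage probes 0 of 7 lay above 0 (median -0.34), and of the neutrophil probes 14 of 14 did (median 0.91). S100a8, a neutrophil granule gene, was detected on all 6 arrays, at 11.35 on cementoblast replicate 3 and 8.80 on osteoblast replicate 1, arrays on which 1 and 2 of the 13 endothelial marker probes were detected. The part of blood cells in the signal of markers that they share with endothelium was not tested.

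Platelet genes were read because platelets carry Pecam1, Esam and Vwf. Cementoblast replicates 1, 2 and 3 detected 1, 4 and 1 of 11 probes, and osteoblast replicates 1, 2 and 3 detected 0, 6 and 3. Pf4, which defines platelets and megakaryocytes, had 7.31, 6.98 and 4.24 in cementoblasts and 4.23, 8.82 and 6.22 in osteoblasts. The part of platelets in the signal of these genes was not tested. Erythroid genes (3 kept probes) averaged 7.75, 8.92 and 7.33 in cementoblasts and 5.49, 8.32 and 7.54 in osteoblasts. B lineage genes (2 kept probes) averaged 5.76, 5.10 and 4.82 in cementoblasts and 4.71, 5.40 and 4.52 in osteoblasts, and Schwann cell genes (3 kept probes) lay within 4.68 to 5.60 on all arrays. No skeletal muscle probe was kept; Acta1 was detected on 2 osteoblast arrays. Krt14, a keratin of basal epithelium and the one epithelial probe kept, had 11.57, 11.18 and 4.47 in cementoblasts and 4.41, 4.49 and 4.17 in osteoblasts, so cementoblast replicates 1 and 2, the arrays highest for endothelial markers, were also those with epithelial RNA; its part in the result was not tested.

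Osteoblast genes were highest on osteoblast replicate 1 and cementoblast replicate 3, the arrays with the lowest endothelial marker means. Their 15 probes averaged 9.19, 8.59 and 10.39 on cementoblast replicates 1, 2 and 3 and 10.66, 9.81 and 10.03 on osteoblast replicates 1, 2 and 3. The highest mean within each tissue was on the array with the fewest endothelial marker probes detected. The other arrays did not run the opposite way. For osteoblast genes and endothelial markers alike, cementoblast replicate 1 was above replicate 2, and osteoblast replicate 3 was above replicate 2. Both probes of Pth1r, the parathyroid hormone receptor, were called lower in cementoblasts (differences of -2.80 and -2.57; limma, adjusted p = 0.0239 and 0.0255). These calls were made under 8 of 16 and 9 of 17 alternatives; both were lost without background correction, with scaling to the 75th percentile, with no detection filter, with the replicate block, and without cementoblast replicate 1, cementoblast replicate 2, osteoblast replicate 1 or osteoblast replicate 3.

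**Figure D4:**
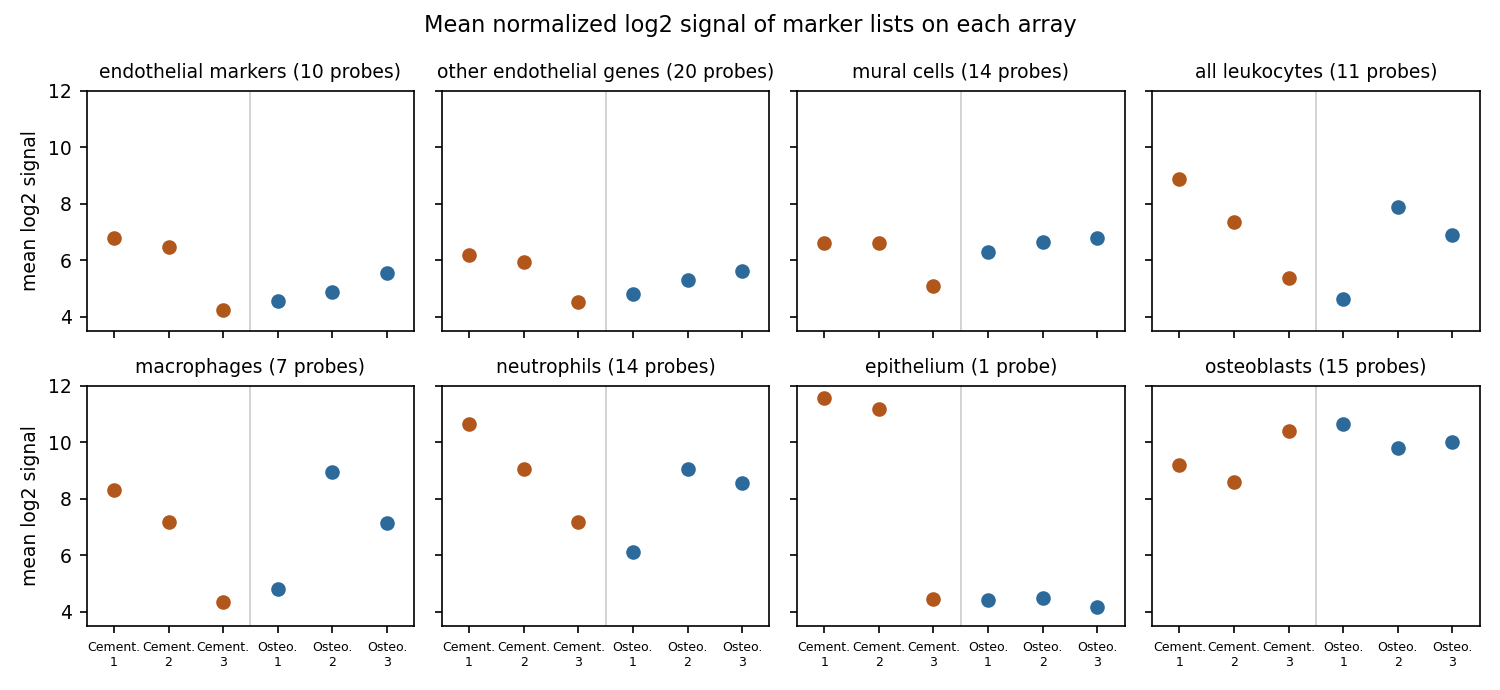
Mean normalized log2 signal (vertical axes) of the kept probes of 8 marker lists on each array, cementoblasts (brown) left of osteoblasts (blue). The endothelial markers and other endothelial genes are lowest on cementoblast replicate 3, leukocyte and neutrophil genes on osteoblast replicate 1, and osteoblast genes are highest on osteoblast replicate 1 and cementoblast replicate 3.

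Across the 6 arrays the markers moved closely together. Over the 28 pairs of the 8 kept genes, each taken by its brightest probe, Pearson's r ran between 0.75 and 0.99 with a median of 0.91; the points share 6 arrays and their normalization, and r is given as a description. The mean standardized profile of the 8 genes was 1.28, 1.04 and -1.02 on cementoblast replicates 1, 2 and 3 and -0.72, -0.56 and -0.02 on osteoblast replicates 1, 2 and 3. Of 8103 other genes, the 8 with the highest correlation to this profile were Mmrn2 (r = 0.995), Slco2a1 (0.987), Gpt (0.986), Vwf (0.985), Krt24 (0.984), Rpl41 (0.977), Plvap (0.977) and Pfkp (0.977), over 6 arrays. Mmrn2, Vwf and Plvap are endothelial genes of the lists used here, and Slco2a1, a prostaglandin transporter, is also known from endothelium. Krt24 is a keratin, Rpl41 a ribosomal protein and Pfkp a glycolytic enzyme, none of them endothelial markers. Gpt is not in the endothelial lists either. Plvap, a protein of the diaphragms of endothelial fenestrae, had 7.90, 7.87 and 4.34 in cementoblasts and 5.48, 5.39 and 6.63 in osteoblasts.

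By this measure 9 of 18 other endothelial genes lay in the top 5% of all genes (r of 0.82 or more), with a median r of 0.76 where that of all genes was -0.15. So did 4 of 6 angiopoietin and growth factor ligands, 2 of 3 arterial genes, 2 of 4 venous genes, 1 of 2 lymphatic genes, 3 of 11 neutrophil genes, 2 of 10 mural genes and Krt14. None of the 8 leukocyte, 6 macrophage, 3 platelet, 3 erythroid, 2 B lineage, 2 Schwann, 2 sinusoidal or 2 co-receptor genes did, nor any of the 5 genes shared by endothelium and blood precursors, such as Cd34. Median r was 0.72 for leukocyte genes, 0.76 for neutrophil genes and -0.69 for the 10 osteoblast genes.

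**Figure D5:**
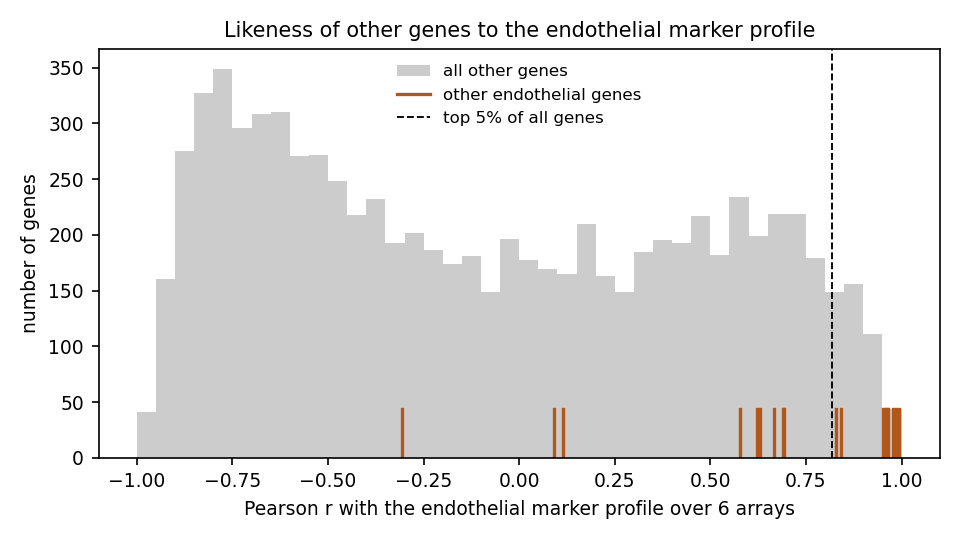
Number of genes (vertical axis) by Pearson correlation over 6 arrays with the mean profile of the 8 endothelial marker genes (horizontal axis), for 8103 other genes (grey), with the 18 other endothelial genes as brown ticks and the top 5% marked by a dashed line at 0.82. Of the ticks, 9 lie past the line.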

How the data were processed

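Per the file headers, the deposited non-normalized table holds, for each probe and array, a bead signal (an intensity on a linear scale) and a detection p-value. The deposited value table of the submitters holds intensities normalized by them; the submitters' processing notes name lumi without a version, and the method is not given in the sources used here. Its scale is linear and its columns have medians of 95.6 to 98.2. The column of osteoblast replicate 2 was within 1% of its non-normalized signal at 100% of probes, so no further background was subtracted there. Whether the other columns were background-corrected is unknown. For replicate 3 of each group, the signal column was matched by its tissue code and by the replicate number in the description, since the title has another number.

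Signals were background-corrected and quantile-normalized by neqc (limma 3.58.1, R 4.3.3; offset of 16, log2). Kept were the 11198 probes, of 8111 genes, that passed detection (p under 0.05) on 3 or more of 6 arrays. Of all probes, 23978 had 1 gene symbol and 1719 had none. Differences were fitted per probe with lmFit and eBayes over all 6 arrays, without a block, and adjusted by Benjamini-Hochberg; gene-level fits are an alternative. The endothelial genes, the other lists and the tests were chosen with earlier results of these data known. Apart from the endothelial genes, the genes named were taken from the first gene of a list, its called genes or else those with the smallest p, but not all of these are named. The 8 genes most like the endothelial profile are named too. Rasip1, Adgrl4 and Podxl were named after their values were seen. A gene that no array of a group detected gets a bound, set against the lowest detected signal of each array. The fit was tested on simulated data. Promoter sequences are from RefSeq. Alternatives tried were other detection filters, the submitters' values, uncorrected background, 75th percentile scaling, 1 probe per gene, other variance models, array weights, replicate or title number as a block, and leaving out arrays. The number of arrays limits the precision.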

Additional observations from a re-analysis of the deposited data

How the results depend on the processing

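No marker probe was called under 15 of the 17 alternatives that gave it a value; no marker had a probe detected on all 6 arrays, so that filter gave no value for the markers. The exceptions were the fits without cementoblast replicate 3 and without that array and osteoblast replicate 1 together, with 2 called in each, so leaving out single arrays gave 0 to 2. Several of the 15 called few of all 11198 probes, such as 0 with the replicate block, so the 15 do not show equal tissues. With array weights, 6 of the 10 marker probes had an unadjusted p under 0.05, beside 1930 of all 11198 probes. There the lowest adjusted p was 0.107 (limma) and the median marker difference 1.21. All 168 values of single marker probes kept the direction, 4 of them past the threshold, and none reversed. Other detection filters, 1 probe per gene, trend and robust variance, and the replicate block leave a probe's fitted difference unchanged, so those values could not reverse. All alternatives reuse the same 6 arrays or part of them, so this count is no independent support for the direction. The median marker difference of 0.92 ran between 0.35 without background correction and 1.81 without cementoblast replicate 3; it was 0.53 in the submitters' values and 0.72 with scaling to the 75th percentile, and the median of all probes moved by under 0.1 with each scaling. The count over all probes was less stable: 33 were called (13 higher, 20 lower), against 17 without background correction (6 higher, 11 lower), 2 with scaling to the 75th percentile (0 higher, 2 lower), 11 with no detection filter, 10 among probes detected on all 6 arrays, 54 with trend and robust variance, 235 with array weights, 84 with the title number as a random block, 267 without cementoblast replicate 3 and osteoblast replicate 1 together, and 0 to 194 with single arrays left out. With the replicate block, 0 probes were called (732 at an unadjusted p under 0.05); the deviations of same-numbered samples correlated at -0.34, 0.35 and 0.09, so the replicate numbers were not taken to pair the samples. The titles number replicates 2 alike in both tissues, and replicates 3 alike, but not replicates 1; no label says what that number marks, and the title block rests on these 2 pairs, whose deviations correlated at 0.35 and 0.09. The cause of these shifts was not tested. Signal over background limits Kdr most, with no array detected, then Cdh5 and Tie1, with 3 arrays each.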
